A study of Mus musculus with 6 samples.

Results

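The 33 genes described here encode the contractile machinery, the filament and adhesion scaffold, the calcium entry and release proteins, the transcriptional coactivator and the small heat shock chaperones of smooth muscle. They were chosen by gene symbol, and all 33 were found among the 16906 genes of the count table. The rule uses no measured value, but the genes and their classes were picked with earlier results of these data known. RNA was sequenced from 6 samples of colonic tissue of wild-type C57BL/6J mice described as male. The mice were labelled as strain C57 and genotype WT, aged 6 to 8 weeks and weighing 20 to 22 g. The normal group (n = 3) is labelled by normal feeding alone. The TNBS group (n = 3) received 5% (w/v) 2,4,6-trinitrobenzenesulfonic acid in the colon through the anus, a hapten given to provoke colitis as a model of inflammatory bowel disease. No sham procedure is named for the normal group, so TNBS and the way it was given cannot be told apart, and the sources used here do not give the time between treatment and collection. The labels do not tie samples to numbered animals, so a p-value covers the spread between the deposited samples only.

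Smooth muscle contracts when calcium entering through voltage-gated channels, or released from stores, binds calmodulin and activates myosin light chain kinase, which phosphorylates the regulatory light chain so that myosin pulls on actin. Intermediate filaments of desmin and synemin, with filamin, vinculin and actinin, carry that force to the membrane. Most genes of this machinery are driven by serum response factor, which binds a DNA element called the CArG box, and by its coactivator myocardin. Small heat shock proteins bind actin, filamin and intermediate filament proteins that unfold under load, and in the colon the outer muscle layers and the thin muscularis mucosae hold most of these transcripts. Vessels, pericytes and fibroblasts express part of the set as well.

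The 6 libraries held 15185569 to 23380492 counts, the fewest in TNBS replicate 2, and within a group they differed by more than sampling noise (chi-square per degree of freedom 37.8 to 173). Transcripts of 4 Y-linked genes, summed, stood at 92.1% to 114% of the normal mean in the normal libraries. In TNBS replicates 1, 2 and 3 they stood at 0.697%, 103% and 38.2%. The labels describe males, which the level in TNBS replicate 1 does not match. Of 13 mitochondrially encoded genes the count table holds 5, so their sum is a part of the mitochondrial share. These 5 took 0.563% to 0.951% of counts in the normal libraries and 0.755%, 3.92% and 1.95% in TNBS replicates 1, 2 and 3. Hoxb6, a gene of position along the gut, stood at 3.36 to 11.5 CPM in normal libraries, against 8.95, 79.3 and 80.6 CPM in TNBS libraries. Hoxb13, which marks the hindmost gut, stood at 106, 57.7 and 7.37 CPM in normal replicates 1, 2 and 3, against 21.5, 0.194 and 0.308 CPM in TNBS libraries, so that normal replicate 3 stood apart from the other normal libraries as well. The part of sex, RNA quality and position along the colon in the results below was not tested. For most genes whose fold change moved by more than 1.5 times without 1 library, that value is given where the gene is described. Levels are given as CPM, each count divided by a library size that was scaled by the trimmed mean of M values (TMM).

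All 33 genes passed the filter on low counts. In edgeR's quasi-likelihood test over 14126 genes, at a Benjamini-Hochberg adjusted p under 0.05, only 1 of the 33 was higher in TNBS colon, Hspb8, and 1 was lower, Synm, beside 0.906% of all tested genes called higher and 1.14% called lower. The groups did not overlap for 7 genes that were lower (21.2%, beside 14.8% of all tested genes) and for 3 that were higher (9.09%, beside 15.3%). The lower ones were Actg2, Tagln, Cnn1, Tpm1, Des, Synm and Ldb3, and the higher ones Hspb8, Hspb1 and Pdlim7. At an unadjusted p under 0.05 there were 4 lower (Actg2, Cnn1, Des and Synm) and 2 higher (Hspb8 and Hspb1), beside 10.2% and 10.8% of all tested genes. The median log2 fold change of the 33 was -0.08, and that of all tested genes 0.01. In bulk tissue, fewer smooth muscle cells and less RNA per cell cannot be told apart.

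**Figure D1:**
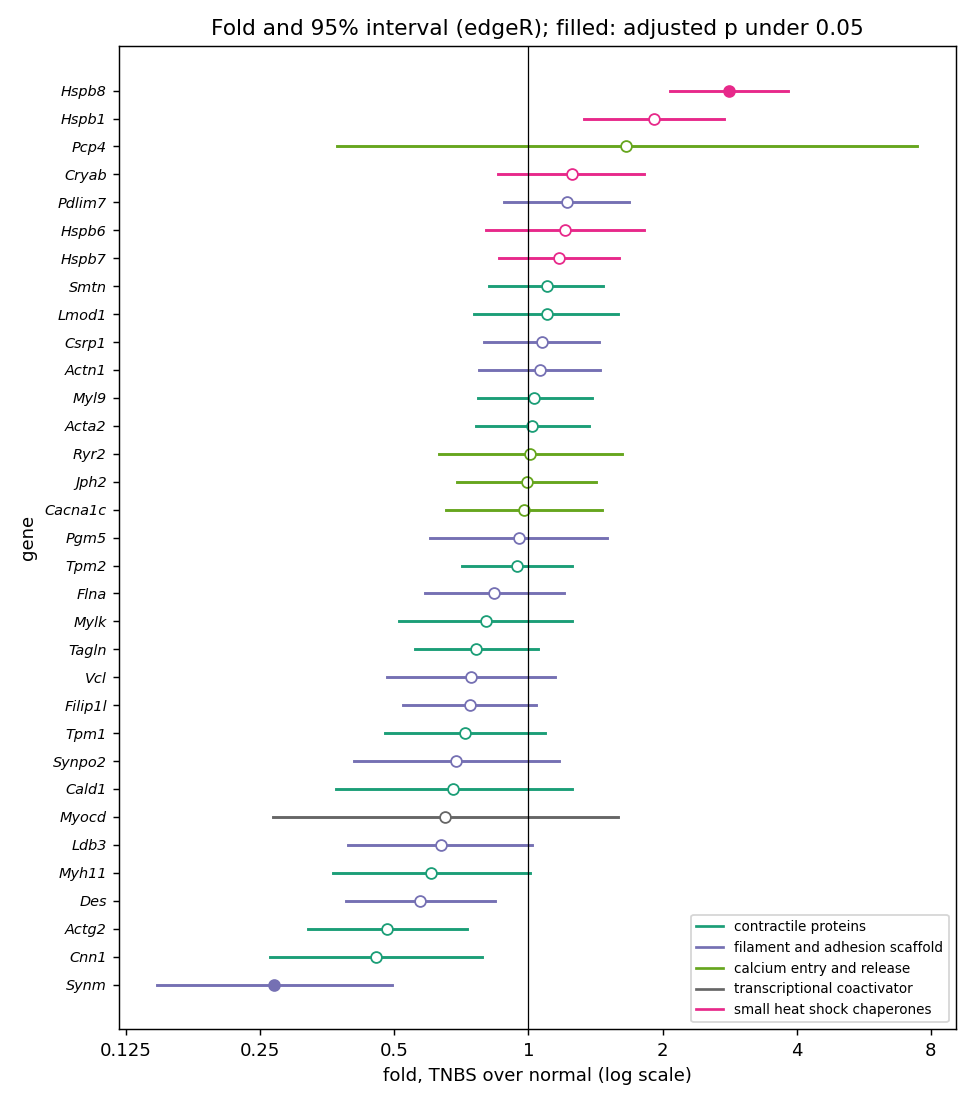
Fold of each of the 33 genes in TNBS over normal colon on a log axis, with the 95% interval of edgeR's fit, coloured by class, n = 3 against 3; filled points passed the adjusted p threshold. Hspb8 at 2.82 and Synm at 0.269 are the filled points, and the 5 chaperones all lie to the right of a fold of 1.

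The libraries of a group differed in these genes. Of the 3 TNBS libraries, replicate 2 held the lowest level for 24 of the 33 genes, where this was so for 39.5% of all tested genes, and it was the lowest of all 6 libraries for 21. Among the normal libraries, replicate 3 held the highest level for 20 of the 33, where this was so for 40.8% of all tested genes. TNBS replicate 3 lay between the other TNBS libraries for 17 of the 33 (51.5%, beside 54.7% of all tested genes). Among normal libraries the highest level exceeded the lowest by 1.05-fold for Csrp1 up to 2.75-fold for Myocd. Among TNBS libraries this spread ran from 1.21-fold for Acta2 to 9.04-fold for Pcp4, which had 14.5 counts per library on average, and it was 4.54-fold for Myocd, 3.26-fold for Cald1 and 2.98-fold for Synm.

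**Figure D2:**
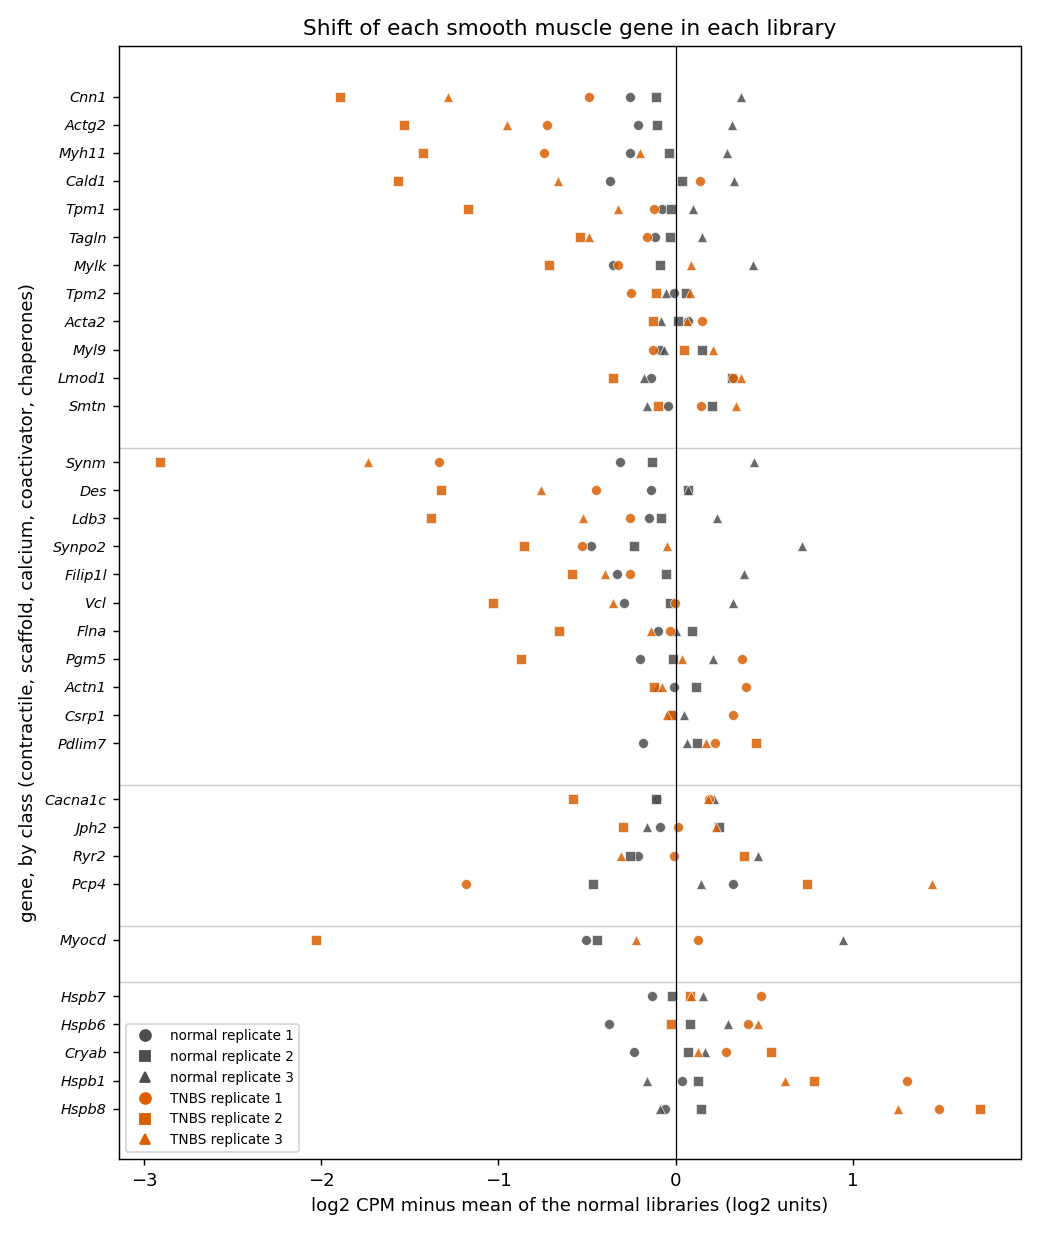
Log2 CPM (prior count 2) of each of the 33 genes minus the mean of the 3 normal libraries, on the x axis, with 1 point per library and genes grouped by class on the y axis. The squares of TNBS replicate 2 lie furthest left for most contractile and scaffold genes, while all TNBS points of Hspb8 lie between 1.25 and 1.72.

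Contractile proteins were abundant in normal colon and none of the 12 passed the test. Per kilobase of exon, the 5 highest levels of all 33 genes in normal colon were those of Actg2 (616 ± 124.5 CPM per kilobase), Tagln (511 ± 49.5), Myl9 (429 ± 39.7), Myh11 (425 ± 82.7) and Acta2 (395 ± 21.3; all SD, n = 3). Neighbours in this order lay within 1 SD of each other's range. In TNBS colon the order of the means was Myl9 at 443, Acta2 at 404, Tagln at 390, Actg2 at 297 and Myh11 at 257 CPM per kilobase. The class had a median log2 fold change of -0.36, with the mean lower in TNBS colon for 8 genes and higher for 4.

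The 2 smooth muscle actins did not pass, and their values are given side by side. Actg2, the gamma actin of enteric smooth muscle on chr6:83512905-83536265 of mm10, minus strand, stood at 818, 880 and 1180 CPM in normal replicates 1, 2 and 3 and at 572, 327 and 489 CPM in TNBS replicates 1, 2 and 3. All TNBS libraries lay below all normal ones, with TNBS replicate 2 the lowest. Its log2 fold change was -1.05 (SE 0.26), a fold of 0.482 with a 95% interval of 0.320 to 0.727, and it missed the threshold (edgeR adjusted p = 0.0815). It passed without TNBS replicate 1 (edgeR adjusted p = 0.0313) and by DESeq2 (adjusted p = 0.00182), which called 2 of the 33 genes higher and 4 lower, beside 4.47% and 4.32% of all genes it gave a p. Leaving out TNBS replicate 1 raised the calls over the whole table, from 128 to 532 genes higher and from 161 to 576 lower (edgeR). Acta2, the alpha actin of vascular as well as visceral smooth muscle on chr19:34241090-34255590, minus strand, stood at 911, 876 and 818 CPM in normal libraries, against 962, 794 and 908 CPM in TNBS libraries. The groups overlapped, and the 95% interval of its fold ran from 0.762 to 1.37 around 1.02 (edgeR adjusted p = 0.935). The sign of its log2 fold change turned without normal replicate 3, to -0.01, and without TNBS replicate 1, to -0.03.

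The myosin chains and their kinase did not pass. Myh11, the smooth muscle myosin heavy chain, stood at 2667, 3115 and 3908 CPM in normal libraries, against 1904, 1189 and 2771 CPM in TNBS libraries. TNBS replicate 3 lay above normal replicate 1, and the fold of 0.605 had a 95% interval of 0.364 to 1.01 (edgeR adjusted p = 0.243). On the log2 scale it was -0.72, and -0.46 without TNBS replicate 2. Myl9, the regulatory light chain that is phosphorylated to start contraction, stood at 468, 551 and 475 CPM in normal libraries, against 455, 514 and 575 CPM in TNBS libraries. Its groups overlapped (fold 1.03, 95% interval 0.770 to 1.39, edgeR adjusted p = 0.904). Mylk, the kinase of that light chain, had a fold of 0.801 with a 95% interval of 0.513 to 1.25, and its highest level was in normal replicate 3 at 1351 CPM. That fold, -0.32 in log2, became -0.07 when normal replicate 3 was left out, -0.14 when TNBS replicate 2 was and -0.55 when TNBS replicate 3 was.

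None of the 7 actin-binding proteins that restrain or stabilise the thin filament passed. Among TNBS libraries the highest level of Cnn1, Cald1 and Tpm1 exceeded the lowest by 2.65-fold, 3.26-fold and 2.07-fold, and that of the other 4 by 1.26-fold to 1.65-fold. Cnn1, calponin, an inhibitor of actomyosin, stood at 599, 663 and 923 CPM in normal libraries, against 509, 192 and 293 CPM in TNBS libraries. The groups did not overlap, but TNBS replicate 1 was nearer to the normal libraries than to the other TNBS libraries. Its log2 fold change of -1.14 (SE 0.35) missed the threshold (edgeR adjusted p = 0.125), passed without TNBS replicate 1 at -1.59 (edgeR adjusted p = 0.0159) and passed by DESeq2 (adjusted p = 0.0125). Tagln, transgelin, stood at 933, 990 and 1124 CPM in normal libraries, against 906, 697 and 723 CPM in TNBS libraries (log2 fold change -0.39, edgeR adjusted p = 0.302). All its TNBS values lay below the normal ones, TNBS replicate 1 by a narrow margin. Cald1, caldesmon, which blocks myosin from actin, was at 532 CPM in TNBS replicate 1 and at 163 and 305 CPM in the others, against 374 to 608 CPM in normal colon. Caldesmon had a log2 fold change of -0.56, which was -1.07 when TNBS replicate 1 was left out and -0.23 when TNBS replicate 2 was. Of the tropomyosins that line the thin filament, Tpm1 had a log2 fold change of -0.47 with no overlap of the groups, and Tpm2 one of -0.09 with overlap (edgeR adjusted p = 0.330 and 0.809). Without TNBS replicate 2 that of Tpm1 was -0.22. Lmod1, leiomodin, which nucleates actin filaments, and Smtn, smoothelin, which binds them, both had a log2 fold change of 0.13 (edgeR adjusted p = 0.780 and 0.715).

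**Figure D3:**
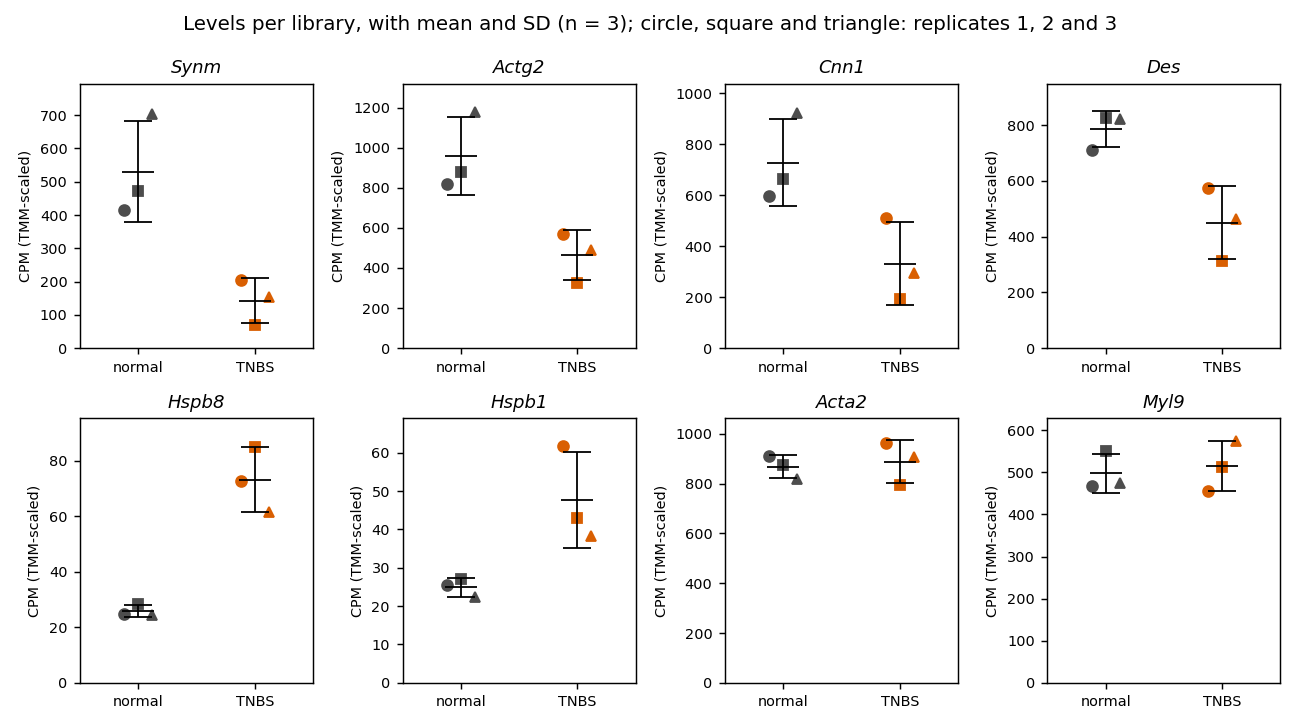
Level in CPM of 8 of the genes in each library, normal on the left and TNBS on the right of each panel, with the mean and SD (n = 3) as bars and each axis starting at 0. Synm, Actg2, Cnn1 and Des lie lower and Hspb8 and Hspb1 higher in every TNBS library, while Acta2 and Myl9 overlap.

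The filament and adhesion scaffold held the 1 gene of the 33 that edgeR called lower. Synm encodes synemin, an intermediate filament protein that copolymerises with desmin or vimentin and links the filaments to membrane attachment sites, on chr7:67730160-67759742 of mm10, minus strand. It stood at 416, 472 and 704 CPM in normal replicates 1, 2 and 3 and at 205, 68.7 and 155 CPM in TNBS replicates 1, 2 and 3. The highest TNBS library held less than the lowest normal library, and TNBS replicate 2 was the lowest by a wide margin. The mean went from 531 ± 153 to 143 ± 68.7 CPM (SD, n = 3), which is a log2 fold change of -1.89 (SE 0.39) and a fold of 0.269 with a 95% interval of 0.147 to 0.493 (edgeR adjusted p = 0.0464). The call was close to the threshold: the adjusted p was 0.0834, 0.153 and 0.155 without normal replicates 1, 2 and 3, 0.0714 without TNBS replicate 2, 0.120 without TNBS replicate 3 and 0.0135 without TNBS replicate 1, all with edgeR. The log2 fold change in those fits lay between -1.56 and -2.25. An antisense gene, Ttc23, shares 84 of the 7933 exon bases of Synm, and the sources used here do not say whether counting kept the strand. The 250 bases before the start site of Synm are printed because edgeR called no other gene of the set lower. They lie on chr7:67759743-67759992 of GRCm38.p6, minus strand, and come from RefSeq. A CArG box that has 1 base other than A or T in its core is in capitals.
Synm: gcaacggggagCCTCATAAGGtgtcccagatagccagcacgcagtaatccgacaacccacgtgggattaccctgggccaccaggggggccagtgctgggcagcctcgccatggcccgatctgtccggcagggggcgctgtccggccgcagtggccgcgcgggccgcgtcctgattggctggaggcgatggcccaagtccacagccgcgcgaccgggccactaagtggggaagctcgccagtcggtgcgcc

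Des showed the same order of TNBS libraries as Synm and did not pass. Des encodes desmin, the main intermediate filament protein of muscle, on chr1:75360329-75368579, plus strand. It stood at 713, 826 and 823 CPM in normal libraries, against 575, 313 and 463 CPM in TNBS libraries. The groups did not overlap, with a gap between 575 and 713 CPM. Its log2 fold change was -0.81 (SE 0.25), a fold of 0.572 with a 95% interval of 0.389 to 0.843 (edgeR adjusted p = 0.124), and it passed without TNBS replicate 1 (edgeR adjusted p = 0.0393) and by DESeq2 (adjusted p = 0.0199). The ratio of Synm to Des, chosen after their values were seen, was 0.583, 0.571 and 0.855 in the normal libraries and 0.356, 0.219 and 0.334 in the TNBS libraries, and is given with no test.

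The other 9 scaffold genes did not pass. Ldb3, a PDZ and LIM domain protein of actinin attachment sites, stood at 22.99, 24.1 and 30.1 CPM in normal libraries, against 21.4, 9.76 and 17.8 CPM in TNBS libraries. These groups did not overlap, but TNBS replicate 1 was close to the normal range (fold 0.635, 95% interval 0.394 to 1.02, edgeR adjusted p = 0.258), and the log2 fold change of -0.66 was -0.39 without TNBS replicate 2. Pdlim7, a relative of Ldb3, was the only scaffold gene with all TNBS libraries above all normal ones, at 27.6, 32.3 and 26.5 CPM against 20.7, 25.6 and 24.7 CPM (edgeR adjusted p = 0.449). Vcl, vinculin, of adhesion plaques, had a fold of 0.745, Flna, filamin A, which crosslinks actin, one of 0.838, and Synpo2, an actin-bundling partner of filamin, one of 0.689 (edgeR adjusted p = 0.403, 0.545 and 0.385). On the log2 scale Vcl went from -0.43 to -0.19 without TNBS replicate 2, -0.25 without normal replicate 3 and -0.68 without TNBS replicate 1. Flna went from -0.26 to -0.09 without TNBS replicate 2, and Synpo2 from -0.54 to -0.09 without normal replicate 3. Vcl shares 2090 of its 8191 exon bases with the antisense gene Ap3m1. Filip1l, named for its relation to a filamin-binding protein, stood at 227, 275 and 372 CPM in normal and at 239, 190 and 216 CPM in TNBS colon (edgeR adjusted p = 0.289), and its log2 fold change of -0.44 was -0.22 without normal replicate 3. Pgm5, aciculin, of muscle adherens junctions, Actn1, an actinin, and Csrp1, a LIM protein of the cytoskeleton, had folds of 0.950, 1.06 and 1.07, and the sign of each turned without 1 library, Pgm5 without normal replicate 3 (log2 fold change 0.04) or TNBS replicate 2 (0.21) and the other two without TNBS replicate 1 (-0.10 and -0.04). The scaffold class had a median log2 fold change of -0.43, with the mean lower in TNBS colon for 8 of its 11 genes.

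Myocd, the coactivator that binds serum response factor at CArG boxes, was low and unevenly measured. It stood at 10.99, 11.5 and 30.2 CPM in normal libraries, against 17.0, 3.75 and 13.3 CPM in TNBS libraries. Normal replicate 3 was far above the other normal libraries, TNBS replicate 2 was the lowest, and the rest overlapped (log2 fold change -0.62, SE 0.57, edgeR adjusted p = 0.557). Leaving out normal replicate 3 gave 0.03, TNBS replicate 1 -1.03 and TNBS replicate 2 -0.20.

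CArG boxes were searched in RefSeq promoters of GRCm38.p6, from 250 bases before to 50 bases after each start site, on both strands. Of the 33 genes, 28 matched, with 36 promoters, and Actg2, Myh11, Tagln, Cryab and Myocd did not. The full CArG box, CC followed by 6 bases that are A or T and by GG, was found for 4 of the 28 genes (14.3%), beside 1.81% of 27025 genes. A box with 1 G or C among those 6 bases was found for 7 of the 28 (25%), beside 9.69% of genes; Myl9 held both kinds. Acta2, Synm, Hspb6, Jph2, Cacna1c and Pcp4 held only the box with 1 G or C. The windows below show the full box of 4 genes and the boxes of Acta2, the most used marker. They are shown, with the box in capitals and 10 bases on each side, because serum response factor binds CArG boxes. They lie on chr2:156775293-156775322 (plus strand) for Myl9, chr14:20929161-20929190 (plus) for Vcl, chr14:34588697-34588726 (minus) for Ldb3 and chr16:57549170-57549199 (plus) for Filip1l. Those of Acta2 lie on chr19:34255438-34255467 and chr19:34255388-34255417 (both minus).
Myl9: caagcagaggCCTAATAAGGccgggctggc
Vcl: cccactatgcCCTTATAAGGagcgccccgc
Ldb3: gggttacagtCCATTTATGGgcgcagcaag
Filip1l: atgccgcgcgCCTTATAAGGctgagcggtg
Acta2, distal box: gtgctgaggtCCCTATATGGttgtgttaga
Acta2, proximal box: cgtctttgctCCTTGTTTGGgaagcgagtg
Vcl and Filip1l held the same 10 letters, and a match is a description of these letters and not of binding.

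The 4 genes of calcium entry and release had a median log2 fold change of 0.00 and none passed. Cacna1c, the pore of the L-type calcium channel, stood at 27.3, 27.2 and 34.2 CPM in normal libraries, against 33.5, 19.7 and 33.4 CPM in TNBS libraries. TNBS replicate 2 was the lowest and the others overlapped (fold 0.977, 95% interval 0.654 to 1.46). Jph2, junctophilin, which holds the channel near the calcium store, had a fold of 0.991 (95% interval 0.691 to 1.42), and Ryr2, a calcium release channel, one of 1.01 (95% interval 0.629 to 1.62). The sign of these 3 turned under several fits that left out a library. Pcp4, a calmodulin-binding peptide, was near the limit of detection, with 8 to 16 counts in normal replicates 1 and 2 and a 95% interval of its fold from 0.371 to 7.47. Its log2 fold change of 0.73 became 0.03 when TNBS replicate 3 was left out and 1.23 when TNBS replicate 1 was, and it shares 17.5% of its 50-base stretches with another gene.

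The mean of each of the 5 small heat shock chaperones was higher in TNBS colon, which held for no other class. EdgeR called 1 of them higher. Hspb8, on chr5:116408491-116422864 of mm10, minus strand, encodes a chaperone that works with the cochaperone Bag3 to sort damaged filamin for degradation. It stood at 24.8, 28.6 and 24.3 CPM in normal replicates 1, 2 and 3 and at 72.6, 85.1 and 61.7 CPM in TNBS replicates 1, 2 and 3. Each TNBS library held more than 2-fold the highest normal level, and the highest was TNBS replicate 2, the library lowest in most contractile transcripts. The mean went from 25.9 ± 2.34 to 73.1 ± 11.7 CPM (SD, n = 3), which is a log2 fold change of 1.498 (SE 0.20) and a fold of 2.82 with a 95% interval of 2.08 to 3.83 (edgeR adjusted p = 0.0128). The call was lost without normal replicate 2 (log2 fold change 1.59, edgeR adjusted p = 0.0721) and without normal replicate 3 (1.45, edgeR adjusted p = 0.0510). It held without each of the other 4 libraries (edgeR adjusted p from 0.0083 to 0.0485). The 250 bases before the start site of Hspb8 are printed because edgeR called no other gene of the set higher. They lie on chr5:116422865-116423114 of GRCm38.p6, minus strand, and come from RefSeq. They hold neither the CArG boxes nor the heat shock elements that were searched, so nothing in them is in capitals.
Hspb8: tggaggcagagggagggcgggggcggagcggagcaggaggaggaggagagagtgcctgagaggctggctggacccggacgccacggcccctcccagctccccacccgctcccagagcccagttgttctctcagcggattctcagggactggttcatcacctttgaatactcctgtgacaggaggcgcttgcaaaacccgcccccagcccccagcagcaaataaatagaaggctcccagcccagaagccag

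Heat shock elements, to which heat shock factors bind, were searched in the same promoters as 2 facing units, GAANNTTC or TTCNNGAA, and as 3 units, GAANNTTCNNGAA or TTCNNGAANNTTC; every match of 3 units also holds 1 of 2 units. The element of 2 units was found for 7 of the 28 genes (25%), beside 17% of all genes, and included Hspb1, Hspb6 and Hspb8 among the 4 chaperones with a promoter. Counted by promoter, 19.4% of the 36 promoters of the set held it, beside 15.1% of all promoters. The element of 3 units was found for 0 of the 28, beside 0.662% of all genes. The windows are shown because Hspb1, Hspb6 and Hspb8 share the same 8 letters, in capitals, with 10 bases on each side. They lie on chr5:135887792-135887819 (plus strand) for Hspb1, chr7:30553171-30553198 (plus) for Hspb6 and chr5:116422845-116422872 (minus) for Hspb8, where the element lies 3 to 10 bases after the start site. The element of Hspb6 lies in 1 of its 2 promoters only. Hspb1 also held an element with other letters, at positions -97 to -90 from its start site, which is not shown.
Hspb1: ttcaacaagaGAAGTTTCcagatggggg
Hspb6: agtaattattGAAGTTTCtaaataagga
Hspb8, after its start site: gaagccaggaGAAGTTTCtaggctcgcg
No match says only that these letters are not in the window.

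The other 4 chaperones did not pass. Hspb1, which caps actin filaments and prevents aggregation of unfolded proteins, stood at 25.5, 27.2 and 22.3 CPM in normal libraries, against 61.8, 42.9 and 38.3 CPM in TNBS libraries. Its groups did not overlap and TNBS replicate 1 was the highest, unlike for Hspb8. The log2 fold change was 0.93 (SE 0.23), a fold of 1.91 with a 95% interval of 1.33 to 2.75 (edgeR adjusted p = 0.0821), and it passed by DESeq2 (adjusted p = 0.0129). Hspb1 shares 48.8% of its 50-base stretches with the pseudogene Hsp25-ps1, so its counts are uncertain where counting split or dropped such reads.

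Hspb6, Hspb7 and Cryab overlapped between the groups. Hspb6, whose phosphorylation goes with relaxation of smooth muscle, stood at 12.9, 17.7 and 20.5 CPM in normal libraries, against 22.2, 16.4 and 23.2 CPM in TNBS libraries (fold 1.21, 95% interval 0.804 to 1.82, edgeR adjusted p = 0.570). Its log2 fold change of 0.28 ran from 0.12 without normal replicate 1 to 0.43 without normal replicate 3. Hspb7, a chaperone of muscle cells, stood at 35.2, 38.0 and 42.9 CPM and at 54.0, 40.9 and 41.1 CPM (fold 1.17, 95% interval 0.858 to 1.6, edgeR adjusted p = 0.535). TNBS replicate 1 alone lay above the normal range for Hspb7, and without it the log2 fold change of 0.23 was 0.08. Cryab, alpha-B crystallin, which binds desmin, stood at 12.2, 15.1 and 16.1 CPM and at 17.5, 20.9 and 15.7 CPM (fold 1.25, 95% interval 0.856 to 1.82, edgeR adjusted p = 0.471), and its log2 fold change of 0.32 was 0.20 without TNBS replicate 2. Hspb6 shares 125 exon bases with antisense genes and Cryab 252 with the antisense gene Hspb2.

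Contractile and chaperone transcripts were set side by side in each library as the median shift of a class, in log2 CPM (prior count 2), from the mean of the normal libraries. The contractile median was -0.13, -0.01 and 0.13 in normal replicates 1, 2 and 3 and -0.14, -0.63 and -0.07 in TNBS replicates 1, 2 and 3. The chaperone median was -0.13, 0.08 and 0.15 in the normal libraries and 0.48, 0.54 and 0.47 in the TNBS libraries. It fell on a different gene in each TNBS library, on Hspb7, Cryab and Hspb6 in replicates 1, 2 and 3. Hspb7 itself was shifted by 0.48, 0.08 and 0.09 there, and Hspb8 and Hspb1 lay above the median in each. The median log2 fold change of the 5 chaperones was 0.32. The chaperone median lay above the contractile median by 0.63, 1.17 and 0.54 in the TNBS libraries. In the normal libraries the difference was 0.00, 0.09 and 0.03. Because each gene was centred on its own mean over the normal libraries, that normal difference was bound to be small on average. The contractile median of TNBS replicates 1 and 3 was close to the range of the normal libraries, and TNBS replicate 2 alone lay far below it. The scaffold median ran alongside, at -0.19, -0.02 and 0.21 in the normal libraries and -0.03, -0.86 and -0.14 in the TNBS libraries.

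**Figure D4:**
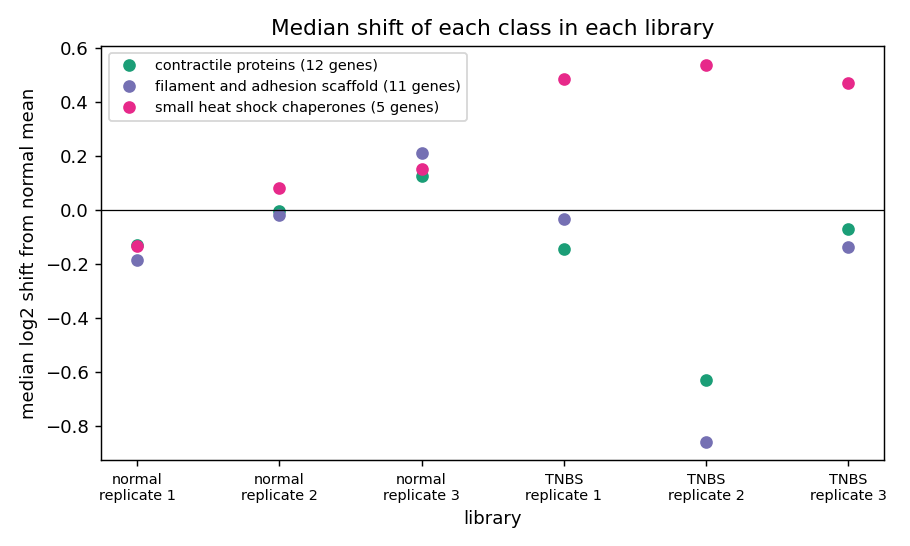
Median over the genes of each class of the log2 CPM shift from the normal mean, on the y axis, in each of the 6 libraries on the x axis. The chaperone points of all TNBS libraries lie between 0.47 and 0.54, and the contractile and scaffold points are lowest in TNBS replicate 2, at -0.63 and -0.86.

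Summed CPM gave the same comparison without a log scale. The 5 chaperones together stood at 111, 127 and 126 CPM in normal libraries, against 228, 206 and 180 CPM in TNBS libraries. Most of that difference lay in Hspb8 and Hspb1: the other 3 together stood at 60.2, 70.8 and 79.5 CPM and at 93.7, 78.2 and 80.0 CPM, where the groups overlapped. The 12 contractile genes together stood at 8507, 9553 and 11350 CPM and at 7557, 5252 and 8145 CPM. The chaperones thus came to 1.30%, 1.32% and 1.11% of the contractile sum in the normal libraries and to 3.02%, 3.92% and 2.21% in the TNBS libraries.

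Each chaperone was also expressed as a percent of the summed CPM of Acta2, Actg2, Myh11 and Tagln in the same library, which was 5329, 5861 and 7031 CPM in the normal and 4344, 3006 and 4891 CPM in the TNBS libraries. The sum was not divided by gene length. Myh11 was its largest term in each library, at 2667, 3115 and 3908 CPM in the normal and 1904, 1189 and 2771 CPM in the TNBS libraries. Hspb8 went from 0.465%, 0.487% and 0.345% in the normal libraries to 1.67%, 2.83% and 1.26% in the TNBS libraries. The ratio of the TNBS to the normal mean was 4.44 for Hspb8, 2.89 for Hspb1, 1.99 for Cryab, 1.83 for Hspb6 and 1.79 for Hspb7. For each of the 5 all TNBS libraries lay above all normal libraries (exact two-sided permutation p = 0.1 each, the smallest that 3 against 3 can give). Dividing by a sum that was lower in the TNBS libraries raised most genes: the median ratio over all tested genes was 1.54, and 41.6% of them had all TNBS libraries above all normal ones. Of the 29 genes of the set outside the divisor 16 did (55.2%), among them Lmod1 at 1.6, Smtn at 1.63, Myl9 at 1.58 and Tpm2 at 1.43. Hspb8 and Hspb1 were the furthest above 1.54 of the 5 chaperones, and Synm was the only gene of the 29 lower without overlap, at 0.393, where 2.6% of all tested genes were. The scaffold gene Pdlim7, at 1.91 without overlap, lay above Hspb6 and Hspb7. Pcp4, with few counts, was at 2.51 with overlap.

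**Figure D5:**
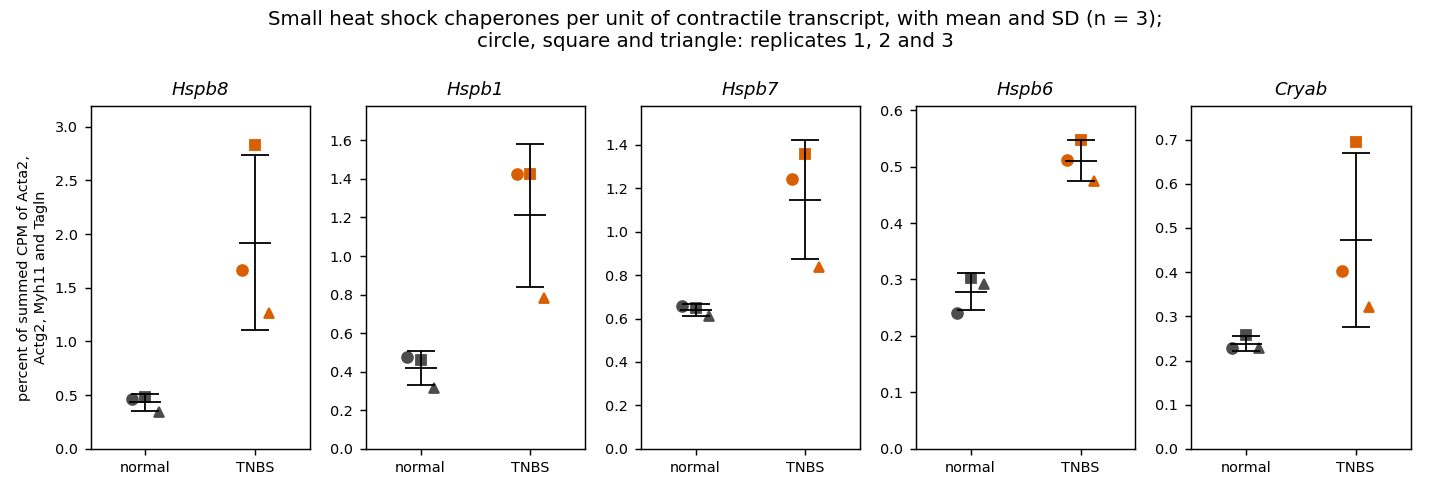
CPM of each small heat shock chaperone as a percent of the summed CPM of Acta2, Actg2, Myh11 and Tagln in the same library, normal on the left and TNBS on the right of each panel, with the mean and SD (n = 3) and each axis starting at 0. All TNBS points lie above all normal points in the 5 panels, and the ratio of means runs from 1.79 for Hspb7 to 4.44 for Hspb8.

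The lists below stand beside all tested genes, of which edgeR called 0.906% higher and 1.14% lower. DESeq2 called 4.47% and 4.32% of the genes it gave a p, and voom 80 and 146 genes. At an unadjusted p under 0.05 (edgeR), 10.8% of all tested genes were higher and 10.2% lower. A gene of these lists is said to rise or fall where edgeR called it. Of 40 genes that control contraction, 35 were tested, 1 rose and 0 fell. DESeq2 called 2 higher and 2 lower, and voom 1 and 0. The median log2 fold change was -0.20, and at an unadjusted p under 0.05 (edgeR) 3 were higher and 7 lower. The gene that rose was Cacnb3, an auxiliary subunit of voltage-gated calcium channels, at 32.5, 29.8 and 23.4 CPM in normal libraries, against 51.3, 76.0 and 69.7 CPM in TNBS libraries (log2 fold change 1.20, SE 0.22, edgeR adjusted p = 0.0360). All TNBS libraries lay above all normal ones for Cacnb3, whereas Cacna1c, the pore it joins, overlapped between the groups. The call was lost without any 1 library other than TNBS replicate 1 (edgeR adjusted p from 0.0804 to 0.152), and without TNBS replicate 1 the p was 0.0118. Over the whole table, leaving out 1 library other than TNBS replicate 1 cut the genes called higher from 128 to between 7 and 43.

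Of 23 genes of serum response factor and smooth muscle transcription, 20 were tested, 2 rose and 1 fell (edgeR; 3 and 2 by DESeq2, 2 and 2 by voom), with a median log2 fold change of 0.15; at an unadjusted p under 0.05 there were 3 higher and 2 lower. Those that rose were Foxf1 and Foxf2, forkhead factors of the gut mesenchyme, from 22.6 to 56.2 CPM and from 12.9 to 30.7 CPM on average (log2 fold change 1.31 and 1.26, edgeR adjusted p = 0.0338 and 0.0360). Fhl1, a LIM protein of muscle that interacts with the cytoskeleton and with transcription factors, fell from 416, 512 and 645 CPM to 249, 157 and 215 CPM (log2 fold change -1.34, SE 0.25, edgeR adjusted p = 0.0360). All TNBS libraries lay below all normal ones, with TNBS replicate 2 the lowest, the order seen for Synm and Des. Each of these 3 calls was lost without any 1 library other than TNBS replicate 1 (edgeR adjusted p up to 0.108 for Foxf1 and 0.152 for Foxf2 and Fhl1).

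None of 55 tested genes of the wider muscle cytoskeleton and adhesion passed by edgeR or voom, and their median log2 fold change was -0.04. DESeq2 called 5 higher and 1 lower, beside 4.47% and 4.32% of the genes it gave a p. At an unadjusted p under 0.05 (edgeR), 10 were higher and 2 lower, beside 10.8% and 10.2% of all tested genes. The one furthest from 0, Smtnl2, a relative of smoothelin, stood at 0.829, 2.45 and 0.0505 CPM in the normal and 2.14, 8.53 and 2.52 CPM in the TNBS libraries (edgeR adjusted p = 0.309). None of 26 tested chaperone partners and heat shock response genes passed either (edgeR; 0 higher and 4 lower by DESeq2, 0 by voom), and their median was -0.25; at an unadjusted p under 0.05, 3 were higher and 6 lower. Hsph1, a nucleotide exchange factor for Hsp70 chaperones, was furthest from 0, at 109, 187 and 357 CPM in the normal and 75.0, 32.0 and 79.4 CPM in the TNBS libraries (log2 fold change -1.81, edgeR adjusted p = 0.0862). For Hsph1 all TNBS libraries lay below all normal ones, the opposite of Hspb8 and Hspb1.

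Markers of other cells that share these genes were counted in the same fit. Over all tested genes edgeR called 0.906% higher and 1.14% lower, and DESeq2 4.47% and 4.32% of those it gave a p. At an unadjusted p under 0.05 (edgeR), 10.8% of all tested genes were higher and 10.2% lower. Of 8 markers of pericytes and vascular mural cells 2 rose, Kcnj8 (log2 fold change 2.19, edgeR adjusted p = 0.0123) and Mcam (0.78, edgeR adjusted p = 0.05 after rounding), all 8 had a higher fit, and their summed level was 733 to 1768 CPM in normal and 1344 to 1741 CPM in TNBS colon. At an unadjusted p under 0.05, 5 of the 8 were higher and 0 lower, and DESeq2 called 4 higher and voom 1. Kcnj8 lost its call without normal replicate 2 (edgeR adjusted p = 0.0721), and Mcam without any 1 library other than TNBS replicate 1 (edgeR adjusted p up to 0.196). Of 4 tested markers of interstitial cells of Cajal, the pacemaker cells of the gut, Ano1 fell. Its level went from 290, 245 and 185 CPM to 125, 87.4 and 97.7 CPM (edgeR adjusted p = 0.0360, up to 0.156 with 1 library left out). The 5 markers in the count table summed to 489 to 532 CPM in normal and 247 to 421 CPM in TNBS colon. At an unadjusted p under 0.05, 1 of the 4 tested markers was higher and 1 lower, and DESeq2 and voom each called 1 lower. Of 11 fibroblast markers none passed by edgeR, DESeq2 or voom, 1 was higher at an unadjusted p under 0.05, and their summed level was 2554 to 2788 CPM in normal colon and 4188, 998 and 2083 CPM in TNBS replicates 1, 2 and 3, lowest in the library that was also lowest in contractile transcripts. Of 5 endothelial markers Cdh5 rose (log2 fold change 1.27, edgeR adjusted p = 0.0360, up to 0.139 with 1 library left out), with a summed level of 134 to 142 CPM in normal and 222 to 340 CPM in TNBS colon. At an unadjusted p under 0.05, 4 of the 5 were higher and 0 lower, and DESeq2 called 2 higher and voom 1. None of 13 markers of enteric neurons and glia, 9 of epithelium and 7 of leukocytes passed, with 1, 0 and 2 higher and 2, 3 and 0 lower at an unadjusted p under 0.05. By DESeq2 0, 0 and 1 of them were higher and 1, 1 and 0 lower, and by voom 0. Summed over the 13, 9 and 9 of these markers in the count table, levels were 155 to 242, 9452 to 11210 and 189 to 402 CPM in normal colon. In TNBS colon they were 122.9 to 191, 7828 to 9113 and 122.7 to 293 CPM. Markers of skeletal muscle were low, at 27.2 to 33.8 CPM summed over 19 genes in normal and 17.99 to 35.3 CPM in TNBS colon, and so were those of mesothelium, at 0.707 to 2.95 and 0.9996 to 1.95 CPM over 4 genes. Of these, 11 skeletal muscle genes and 1 mesothelium gene were tested. Neither list had a call by edgeR or voom, DESeq2 called 2 skeletal muscle genes lower, and at an unadjusted p under 0.05 there were 0 higher and 1 lower in skeletal muscle and 0 in mesothelium. In the lists of fibroblasts, neurons, epithelium and skeletal muscle the genes furthest from 0 were Mfap5, Elavl4, Krt20 and Tnni1, with log2 fold changes of -0.81, -1.20, -1.17 and -2.15. The part of these cell types in the levels of the 33 genes was not tested.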

How the data were processed

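RNA of colonic tissue was sequenced in 3 normal and 3 TNBS samples. Per the labels, kits named GenSeq (low input RNA) and SMARTER (mRNA-Seq) were used for the libraries, and per the submitters' processing notes CASAVA 1.8, HISAT2 and the build mm10 were used. The authors deposited raw counts per gene in a single table of 16906 protein-coding genes. The sources used here name no counting tool, annotation or strand setting. A further 6 columns of per-sample values were not used.

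Counts were tested with edgeR 4.0.16 in R 4.3.3, with filterByExpr (minimum count 10, minimum total 15), TMM scaling, a quasi-likelihood test on group and Benjamini-Hochberg adjustment over 14126 genes at 0.05, two-sided. DESeq2 1.42.0 and limma 3.58.1 (voom) were alternatives. Ratios of single genes to the contractile sum were compared by exact permutation with scipy 1.17.1 in Python 3.11.15. Of these steps only the edgeR test was tried on simulated data. Coordinates and exon lengths came from GENCODE vM21, which holds 16732 of the 16906 identifiers, and promoters from RefSeq on GRCm38.p6.

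Groups and replicate numbers came from the labels. The 33 genes, their classes and the other gene lists were chosen with earlier results of these data known. All 33 could be named, together with called genes of the other lists (at most 6 per list) or, where a list had none, the gene furthest from 0 with a mean of at least 50 counts. A single such gene is not reported here. Counts measure a share of each library and not RNA per cell, and precision is limited by 3 libraries per group. A count of 3 was worth 0.128 to 0.198 CPM.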

Additional observations from a re-analysis of the deposited data

How the results depend on the processing

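Of 462 fold changes of the 33 genes (14 alternatives), 408 kept their sign and their side of the threshold, 10 lost a call, 12 gained a call and 32 turned sign, over 15 genes; 18 genes never turned. Genes called higher numbered 128, and 196 on library totals without TMM, 209 without a filter, 668 by DESeq2, 80 by voom, 338 with TNBS replicate 2 alone in its group, 30 with TNBS replicate 1 alone, and 7 to 532 with 1 library left out. Genes called lower numbered 161, and 102 on library totals, 645 by DESeq2, 480 and 33 with those lone libraries and 11 to 576 with 1 library left out. The spread of a lone TNBS library was taken from the normal group. With 1 library left out, 532 higher and 576 lower came without TNBS replicate 1, and any other library gave at most 43 and 51. Of the 33 genes, 1 was higher, and 2 by DESeq2, 0 with TNBS replicate 1 alone and 0 to 1 with 1 library left out; 1 was lower, and 0 on library totals (Synm adjusted p = 0.0599), 4 by DESeq2, 6 and 0 with TNBS replicates 2 and 1 alone and 0 to 4 with 1 library left out. Contraction control gave 2 higher by DESeq2, 0 with TNBS replicate 1 alone and 0 to 2 with 1 left out; lower it gave 1 with DESeq2 size factors, 1 without a filter, 2 by DESeq2, 2 with TNBS replicate 2 alone and 0 to 1 with 1 left out. The transcription list gave 0 higher with either lone library and 0 to 2 with 1 left out; lower it gave 2 by DESeq2, 2 by voom, 0 with TNBS replicate 1 alone and 0 to 1 with 1 left out. The wider cytoskeleton gave 1 higher on library totals, 5 by DESeq2 and 0 to 2 with 1 left out; lower it gave 1 by DESeq2, 2 with TNBS replicate 2 alone and 0 to 2 with 1 left out. Chaperone partners gave 1 lower without a filter, 4 by DESeq2, 1 with TNBS replicate 2 alone and 0 to 1 with 1 left out.

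A fit with the replicate number as a block called 1 gene of contraction control lower, 1 of the transcription list higher, 1 of the wider cytoskeleton higher and 3 chaperone partners lower, and changed no call among the 33 genes. Deviations of same-numbered libraries from their group means had correlations of 0.01, 0.01 and 0.04. With 3 libraries per group, whose deviations depend on each other, this cannot show whether the libraries were paired. Normal replicates 2 and 3 deviated most like the TNBS library of the same number, and normal replicate 1 most like TNBS replicate 2. The block fit called 153 genes higher and 207 lower over the whole table. With TNBS replicate 2 alone the log2 fold change turned to -0.14 for Acta2, -0.38 for Lmod1, -0.11 for Smtn, -0.058 for Hspb6, -0.026 for Csrp1 and -0.13 for Actn1. With TNBS replicate 1 alone it turned to 0.12 for Cald1, 0.37 for Pgm5, 0.007 for Jph2, -0.043 for Ryr2, 0.19 for Cacna1c, -0.13 for Myl9 and -1.58 for Pcp4. On library totals, which moved the median of all genes from 0.01 to 0.15, it turned to 0.054 for Tpm2, 0.082 for Pgm5, 0.13 for Jph2 and 0.12 for Cacna1c. With 1 library left out it ran from -0.031 to 0.11 for Acta2, -1.03 to 0.026 for Myocd, -0.36 to 0.21 for Pgm5, -0.036 to 0.16 for Csrp1, -0.14 to 0.14 for Jph2, -0.19 to 0.29 for Ryr2, -0.16 to 0.18 for Cacna1c, -0.039 to 0.14 for Myl9 and -0.10 to 0.18 for Actn1. The mean over TNBS libraries of the chaperone median shift, 0.50, was 0.64 on library totals, 0.54 in TNBS replicate 2 alone and 0.37 to 0.57 with 1 library left out. That of the contractile genes, -0.28, was -0.14 on library totals, -0.63 in TNBS replicate 2 alone and -0.39 to -0.11 with 1 library left out. That of the scaffold, -0.34, was -0.20 on library totals, -0.86 in TNBS replicate 2 alone and -0.50 to -0.09 with 1 library left out. Class medians without the filter were not run. With all 12 contractile genes as divisor the chaperone ratios ran from 1.68 to 4.15. The cause of these changes was not tested.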

Other observations

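The values of the following ratios and genes were known when they were picked. The ratios are given with no test, and the adjusted p of each gene comes from the fit over all genes. The ratio of Actg2 to Acta2, the enteric to the vascular and visceral actin, was 0.898, 1.0 and 1.44 in normal replicates 1, 2 and 3 and 0.594, 0.412 and 0.539 in TNBS replicates 1, 2 and 3. The ratio of Cnn1 to Tagln was 0.642, 0.669 and 0.821 in the normal and 0.562, 0.276 and 0.405 in the TNBS libraries. The ratio of Myh11 to Myl9 was 5.70, 5.65 and 8.23 in the normal and 4.18, 2.31 and 4.82 in the TNBS libraries. For each of these ratios all TNBS libraries lay below all normal ones. As the pairs were picked with these values known, that lack of overlap was in part set by the choice. How many other gene pairs show it was not counted. These ratios do not depend on how library sizes were scaled.

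Hspb8 also differed from its cochaperone. Bag3 stood at 64.2, 69.7 and 70.2 CPM in the normal and 88.7, 68.5 and 66.3 CPM in the TNBS libraries (log2 fold change 0.13, edgeR adjusted p = 0.698). The ratio of Hspb8 to Bag3 was 0.386, 0.410 and 0.346 in the normal and 0.818, 1.24 and 0.930 in the TNBS libraries. Of the inducible Hsp70 genes, which are near-identical copies between which counting could split reads, Hspa1a stood at 13.0, 33.8 and 41.0 CPM in the normal and 12.8, 29.6 and 18.6 CPM in the TNBS libraries (edgeR adjusted p = 0.517). Hspa1b stood at 33.6, 73.3 and 68.3 CPM in the normal and 15.7, 23.4 and 23.8 CPM in the TNBS libraries (edgeR adjusted p = 0.0536). The groups overlapped for Hspa1a and not for Hspa1b. Hsp90aa1, an inducible Hsp90, stood at 473, 636 and 1214 CPM in the normal and 385, 293 and 364 CPM in the TNBS libraries (edgeR adjusted p = 0.112).

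Among receptors and regulators of contraction, Chrm3, the muscarinic receptor that drives contraction, stood at 9.34, 15.8 and 11.5 CPM in the normal and 2.50, 0 and 1.18 CPM in the TNBS libraries (edgeR adjusted p = 0.103). Prkg1, the kinase of cyclic GMP signalling that relaxes smooth muscle, stood at 12.6, 11.6 and 17.1 CPM in the normal and 6.18, 2.91 and 6.52 CPM in the TNBS libraries (edgeR adjusted p = 0.0971). Ppp1r14a, an inhibitor of myosin phosphatase, stood at 8.64, 7.57 and 6.01 CPM in the normal and 12, 17.8 and 18.9 CPM in the TNBS libraries (edgeR adjusted p = 0.0916). The groups of these 3 genes did not overlap, and none passed the test. Srf itself stood at 36.1, 41.2 and 23.2 CPM in the normal and 36.6, 45.1 and 44.7 CPM in the TNBS libraries (edgeR adjusted p = 0.466).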
